A study of Mus musculus with 6 samples.

Results

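Semaphorins and their receptors were described here in early thymocytes labelled wild type or deficient in the transcription factor E2A. The set held every gene on the array whose symbol was that of a semaphorin, a plexin or a neuropilin. It came to 31 of the 18193 genes measured, namely 20 semaphorin ligands, 9 plexins and 2 neuropilins. Each gene was read by its brightest probe set among those that name that gene alone. The samples were DN2 cells sorted from the fetal thymus of FVB mice, 3 arrays of wild-type cells and 3 of E2A-deficient cells. DN2 cells are early thymocytes, lacking CD4 as well as CD8, at the step where T-lineage commitment begins. E2A is the product of Tcf3, an E protein that binds DNA at E boxes. The labels do not say how the gene was disabled, whether it was missing in the thymocytes alone, the age of the embryos, or whether animals were pooled.

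Semaphorins are secreted or membrane-bound proteins that steer axons, vessels and migrating leukocytes. They act mainly through plexins, whose cytoplasmic part switches off small GTPases of the Rap and R-Ras kind, and most class 3 semaphorins also use a neuropilin as co-receptor. In the thymus the pair of Sema3e and Plxnd1 is known for guiding developing thymocytes towards the medulla, and Sema4d, or CD100, is a well-known surface protein of T cells.

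Of the 31 genes 4 rose in E2A-deficient cells and 0 fell, while 27 did not pass (limma, Benjamini-Hochberg adjusted p under 0.05 over all 18193 genes). The 4 were the receptors Plxnc1 and Plxnb2 and the ligands Sema4f and Sema3c. Over all genes 3.46% passed, 2.4% upward and 1.06% downward, against 12.9% of the 31. The set was chosen with earlier results of these data known. The share of the members rests on which probe set stands for Sema4f and Sema3c. Their chosen probe sets were the dimmer ones in wild-type cells and ranked first over the 6 arrays only through their E2A-deficient values, so the choice used the difference that was then tested. With each gene read by the probe set brightest in wild-type cells, an alternative chosen after seeing the data, 2 of the 31 passed in limma, Plxnc1 and Plxnb2, against 3.24% of all genes. At an unadjusted p under 0.05 the count was 6 of 31, 4 higher and 2 lower, where 15.7% of all genes lay. The arrays of the groups did not overlap in 5 members that were higher and 2 that were lower in E2A-deficient cells. Over all genes the corresponding shares were 13.2% and 6.74%, so this count lay near the background. The median log2 difference, E2A deficient minus wild type, was 0.03 over the members and 0.01 over all genes.

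Stretches before a RefSeq start of each of the 4 genes that rose are shown because E2A binds E boxes, whose letters are CANNTG. Each covers the 250 bases before that start (GRCm38.p6), read 5' to 3' on the gene's strand, with every CANNTG in capitals. Plxnb2 has another listed start further upstream, whose stretch at chr15:89180789-89181038 is not shown. The Plxnb2 stretch shown is the one that held an E box. The E box reads the same way on both strands in this notation. Plxnc1 is on the minus strand at chr10:94944846-94945095, Plxnb2 on the minus strand at chr15:89173952-89174201, Sema4f on the minus strand at chr6:82939770-82940019 and Sema3c on the plus strand at chr5:17574566-17574815.
Plxnc1: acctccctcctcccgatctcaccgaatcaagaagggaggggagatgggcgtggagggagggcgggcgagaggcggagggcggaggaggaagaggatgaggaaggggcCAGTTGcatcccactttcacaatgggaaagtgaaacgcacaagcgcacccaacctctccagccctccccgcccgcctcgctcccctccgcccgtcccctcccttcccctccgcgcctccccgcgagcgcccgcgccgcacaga
Plxnb2: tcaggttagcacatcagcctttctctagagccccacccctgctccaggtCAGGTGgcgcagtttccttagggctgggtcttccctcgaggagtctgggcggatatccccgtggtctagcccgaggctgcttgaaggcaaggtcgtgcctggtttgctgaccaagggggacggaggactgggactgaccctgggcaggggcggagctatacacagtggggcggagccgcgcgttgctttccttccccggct
Sema4f: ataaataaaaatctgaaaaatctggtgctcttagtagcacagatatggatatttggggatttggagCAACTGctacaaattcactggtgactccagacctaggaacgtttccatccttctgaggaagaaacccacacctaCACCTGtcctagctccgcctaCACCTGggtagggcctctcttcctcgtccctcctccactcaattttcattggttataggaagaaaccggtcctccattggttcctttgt
Sema3c: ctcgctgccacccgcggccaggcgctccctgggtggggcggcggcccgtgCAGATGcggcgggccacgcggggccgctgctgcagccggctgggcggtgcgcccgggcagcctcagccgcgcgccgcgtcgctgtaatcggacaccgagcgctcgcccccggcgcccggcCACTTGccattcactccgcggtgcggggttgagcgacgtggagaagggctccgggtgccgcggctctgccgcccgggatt

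Sema4f held 3 E boxes, of which 2 read CACCTG, and these began 110 and 89 bases before the start. CACCTG is the reverse complement of CAGGTG, a form that E proteins are known to bind. The Plxnb2 stretch held a single E box, CAGGTG, which began 201 bases before the start, and the stretch before the other start listed for Plxnb2 held 0. Plxnc1 held 1 E box (CAGTTG) and Sema3c held 2 (CAGATG and CACTTG). The promoter table matched 26 of the 31 genes with 37 stretches of this length. CANNTG was found in 51.4% of these 37 and in 66.2% of all 32851 stretches. CAGGTG on either strand was in 13.5% and 17.2%, and CAGCTG, which like CAGGTG is a form of CANNTG, in 16.2% and 13% respectively. These are matches of letters only, and no binding was measured here.

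Among the receptors, Plxnc1 had the smallest p-value. Plxnc1, the receptor of Sema7a on leukocytes, read 91.0, 78.2 and 95.3 in wild-type cells and 223, 222 and 192 in E2A-deficient cells. The lowest E2A-deficient array lay far above the highest wild-type array, and the spread within each group was small beside that gap. The means were 88.2 ± 8.92 and 212 ± 17.2 (SD, n = 3 per group). The log2 difference was 1.26 (SE 0.0954, 95% interval 1.04 to 1.48), or 2.40 times, with a limma adjusted p of 9.71e-04. It ranked 41 of 18193 genes by p-value. The call held in all 19 alternatives tried (limma adjusted p 6.55e-06 to 0.0124).

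The array carries 6 probe sets for Plxnc1, and they did not move equally. Besides the brightest, another probe set read 71.3, 68.3 and 86.3 in wild-type and 126, 159.8 and 143 in E2A-deficient cells. It rose by 0.92 (limma adjusted p = 0.0120 over all probe sets). A further one stood at 57.4, 66.5 and 69.8 against 119, 87.1 and 84.9, a difference of 0.57 that did not pass (limma adjusted p = 0.119). The groups did not overlap in these 3 probe sets. The next was 0.31 higher and narrowly missed the threshold (limma adjusted p = 0.0505). The remaining pair, at 0.08 and -0.05, showed no such difference. In wild-type cells the pair averaged 57.5 and 61.5, beside 62.9 and 64.6 for the probe sets at 0.31 and 0.57. With the mean over its probe sets the difference of Plxnc1 was 0.51, and it still passed.

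Plxnb2, a receptor of class 4 semaphorins such as Sema4c, is widely expressed outside the nervous system. It read 88.1, 105 and 100.1 in wild-type cells and 179, 147 and 147 in E2A-deficient cells. All 3 E2A-deficient arrays were above all 3 wild-type arrays. The log2 difference was 0.69 (SE 0.102, 95% interval 0.45 to 0.92), or 1.61 times, with a limma adjusted p of 0.0145. The array has 1 probe set for this gene, so no other could be set beside it. A covariate for the beta-actin controls, the signal at the 5' end over that at the 3' end, left a difference of 0.58 that missed the threshold (limma adjusted p = 0.199; range over 19 alternatives 0.00160 to 0.199).

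**Figure D1:**
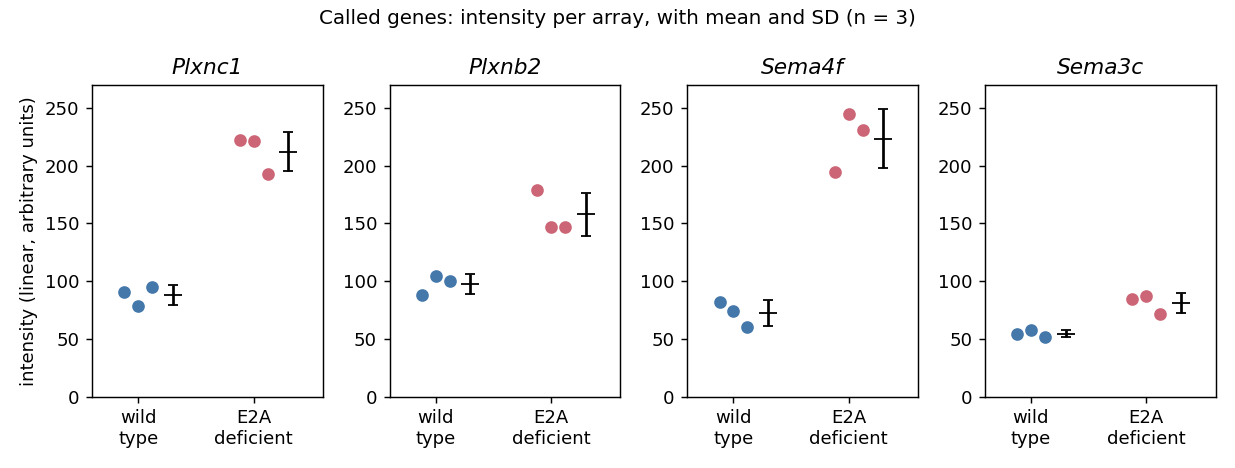
Intensity (linear, arbitrary units, vertical axis from 0) of Plxnc1, Plxnb2, Sema4f and Sema3c on each wild-type (blue) and E2A-deficient (red) array, with the mean and SD (n = 3) in black. In each gene the 3 E2A-deficient arrays lie above the 3 wild-type arrays. The gap is widest for Sema4f, from 72.2 to 223 in the mean, and narrowest for Sema3c, from 54.5 to 81.0.

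The other plexins and both neuropilins did not pass. Plxnd1, the receptor of Sema3e, read 138, 118 and 119 in wild-type and 114, 101 and 81.4 in E2A-deficient cells. All 3 wild-type arrays were above the E2A-deficient ones, but the spread within each group was wide for so small a gap. Its difference was -0.34 (SE 0.129, 95% interval -0.65 to -0.04, limma adjusted p = 0.246). Plxnb1, the receptor of Sema4d, read 182, 133 and 136 against 145, 160.2 and 148, and the groups overlapped (0.02, 95% interval -0.27 to 0.31). The remaining receptor of the B class, Plxnb3, differed by 0.04.

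The class A plexins, which serve class 3 semaphorins with neuropilins and class 6 semaphorins directly, stayed within 0.14 of zero. Plxna1 was at 86.8, 92.2 and 97.6 in wild-type and 97.3, 103 and 105 in E2A-deficient cells, a difference of 0.14 (95% interval -0.01 to 0.29) with overlapping groups. Plxna2 (-0.05), Plxna3 (0.04) and Plxna4 (0.00) differed by less than their intervals. Plxna3 and Plxnb3 lie on the X chromosome, and the proportion of male to female cells differed between the wild-type arrays, where Xist read 3055, 4456 and 58.7. With Xist as a covariate neither passed.

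Neuropilin 1, a co-receptor of class 3 semaphorins that also binds VEGF, read 102, 79.4 and 77.9 in wild-type and 68.6, 68.8 and 87.4 in E2A-deficient cells. The highest E2A-deficient array lay above the lower pair of wild-type arrays. The difference of Nrp1 was -0.20 (SE 0.134, 95% interval -0.51 to 0.11, limma adjusted p = 0.590). All 4 of its probe sets were lower, from -0.36 to -0.02, and none passed over all probe sets in limma. The lowest of these read 89.1, 70.5 and 81.4 against 66.5, 61.8 and 58.8 (limma adjusted p = 0.146), and there the groups did not overlap. Nrp2 stood at 84.0, 77.4 and 88.5 against 77.1, 81.3 and 79.9, a difference of -0.07 (95% interval -0.22 to 0.09).

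**Figure D2:**
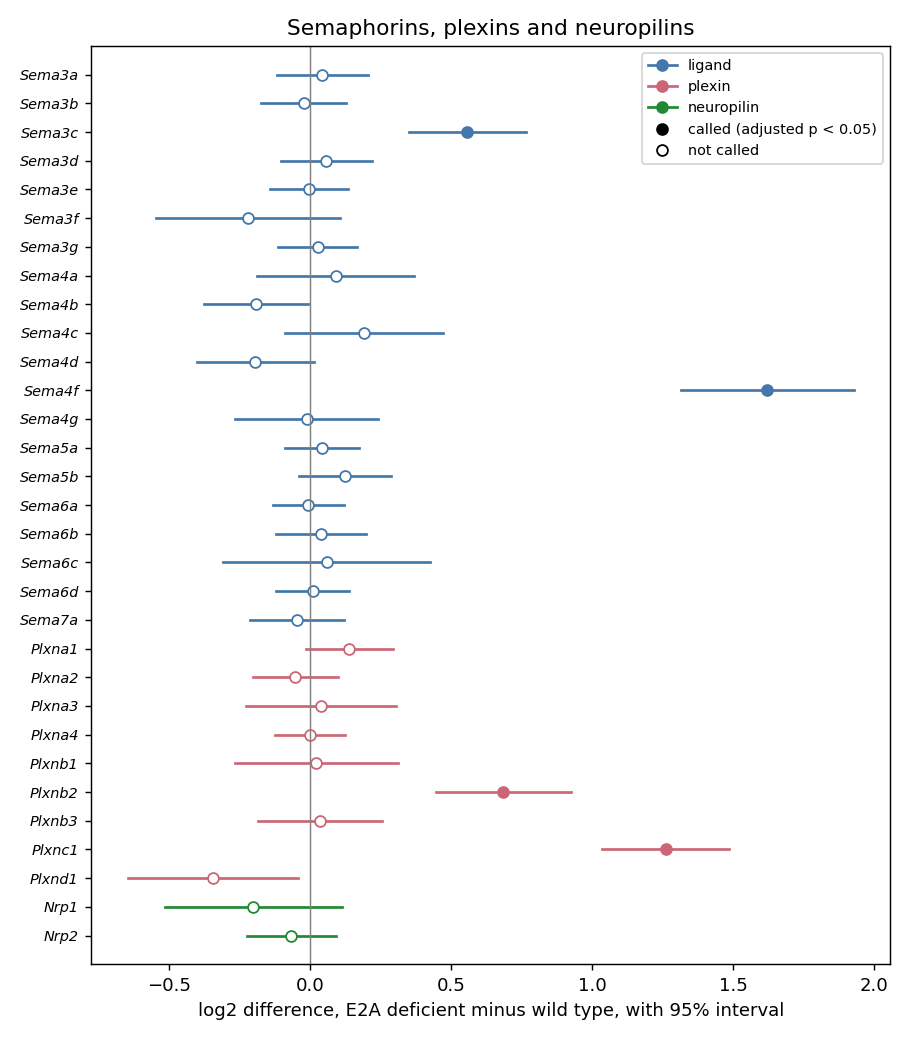
Log2 difference (horizontal axis, E2A deficient minus wild type) with its 95% interval for the 20 ligands (blue), 9 plexins (red) and 2 neuropilins (green), where filled points passed at an adjusted p under 0.05. Sema4f, Plxnc1, Plxnb2 and Sema3c stand to the right at 1.62, 1.26, 0.69 and 0.56, and the other 27 points lie between -0.34 and 0.19.

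Among the ligands, 2 of 20 rose, 0 fell by limma, although Sema4b was lower at an unadjusted p of 0.0446, and 18 did not pass. With the probe set brightest in wild-type cells the ligands called were 0 of 20 by limma, with 2 at an unadjusted p under 0.05, so the count of ligands depends on the choice of probe set. Sema4f, a membrane-bound class 4 semaphorin best known from neurons, read 82.3, 74.1 and 60.2 in wild-type cells and 195, 245 and 231 in E2A-deficient cells. Wild-type arrays lay around or below the median of all probe sets, 78.4, and E2A-deficient arrays above its upper quartile, 134. The means were 72.2 ± 11.2 and 223 ± 25.7 (SD, n = 3 per group). The log2 difference was 1.62 (SE 0.131, 95% interval 1.32 to 1.93), or 3.08 times, with a limma adjusted p of 0.00116. By size of difference it was at rank 32 of 18193 genes.

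The probe set behind this value carries the suffix _x_at, which marks probes that can also hybridise to other transcripts. The other probe set of Sema4f has no such suffix and read 95.6, 92.7 and 85.7 in wild-type and 128, 116 and 106 in E2A-deficient cells. Its E2A-deficient arrays were also above its wild-type arrays, by 0.35, but without passing over all probe sets (limma adjusted p = 0.113). This other probe set was the brighter one in wild-type cells, at a mean of 91.3 against 72.2, and the dimmer one in E2A-deficient cells, at 117 against 223. With it in place of the chosen one Sema4f missed the threshold over all genes (limma adjusted p = 0.0853). When only probe sets without a shared suffix were used, Sema4f likewise missed it (limma adjusted p = 0.0869; range over 19 alternatives 2.01e-06 to 0.0869). It passed in the other 17. The mean over its probe sets was 0.98 higher and passed (limma adjusted p = 9.63e-04). That mean includes the chosen probe set at 1.62, beside 0.35 for the other, so it is no independent reading of the gene.

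Sema3c, a secreted class 3 semaphorin that signals through neuropilins, was dim. It read 54.6, 57.4 and 51.7 in wild-type and 84.6, 87.1 and 71.3 in E2A-deficient cells. The groups did not overlap, and the wild-type arrays lay below the median of all probe sets. The log2 difference was 0.56 (SE 0.0887, 95% interval 0.35 to 0.77), or 1.47 times, with a limma adjusted p of 0.0181. Its other probe set read 57.6, 60.2 and 66.6 against 65.0, 71.6 and 70.6, and differed by 0.17 without passing (limma adjusted p = 0.416). That probe set was the brighter one in wild-type cells, at a mean of 61.5 against 54.5, and the dimmer one in E2A-deficient cells, at 69.1 against 81.0. With it Sema3c missed the threshold over all genes (limma adjusted p = 0.347). The call was lost without wild-type replicate 3 (limma adjusted p = 0.0596) and without E2A-deficient replicate 1 (0.0730) or 2 (0.0638). Adding the beta-actin ratio gave a difference of 0.46 that missed the threshold (limma adjusted p = 0.229; range over 18 alternatives 2.89e-04 to 0.347). The mean over its probe sets was 0.36 higher and passed (limma adjusted p = 0.0125). That mean includes the chosen probe set at 0.56, beside 0.17 for the other, so it too is no independent reading.

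The other 6 class 3 semaphorins did not pass. Sema3f, a ligand of Nrp2, read 699, 585 and 784 in wild-type and 699, 553 and 527 in E2A-deficient cells. The groups overlapped, and the difference was -0.22 (SE 0.139, 95% interval -0.54 to 0.11). That value also came from a probe set with the suffix _x_at. The other probe sets of Sema3f differed by 0.01 and -0.01. Sema3e, the ligand of Plxnd1, read 68.5, 65.5 and 62.7 against 63.7, 66.0 and 66.7 and differed by -0.00 (95% interval -0.14 to 0.14). Sema3a, Sema3b, Sema3d and Sema3g lay between -0.02 and 0.06.

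Class 4 semaphorins include those best known from lymphocytes. Sema4d read 151, 133 and 140.2 in wild-type and 137, 111 and 124 in E2A-deficient cells. The highest E2A-deficient array lay above the lowest wild-type array, and the difference was -0.19 (SE 0.0886, 95% interval -0.40 to 0.01, limma adjusted p = 0.359). Sema4b, a relative of Sema4d, stood at 145, 124 and 128 against 123, 115 and 109.8. Its groups were separate by a narrow margin, with a difference of -0.19 (95% interval -0.37 to -0.01) that did not pass (limma adjusted p = 0.299).

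Sema4a, which acts on T cells, was at 221, 229 and 188 in wild-type and 215, 266 and 202 in E2A-deficient cells. The groups overlapped, with a difference of 0.09 (95% interval -0.19 to 0.37), and its other probe set gave 0.08. Sema4c, a ligand of Plxnb2, read 76.9, 98.0 and 103 against 116, 98.2 and 102 (0.19, 95% interval -0.09 to 0.47), and wild-type replicate 1 was the low value. Sema4g differed by -0.01.

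In classes 5, 6 and 7 none of 7 members passed in limma, and 0 of them had an unadjusted p under 0.05. Sema5b read 73.5, 73.6 and 72.9 in wild-type and 87.3, 75.2 and 77.9 in E2A-deficient cells, which were separate by a narrow margin (0.12, 95% interval -0.04 to 0.29). Sema6c, a membrane-bound partner of class A plexins, was at 237, 212 and 254 against 288, 266 and 189. Its E2A-deficient arrays spanned the whole wild-type range, and its standard error was the widest of the members (0.06, SE 0.156). Sema7a, the ligand of Plxnc1, which is anchored in the membrane by a lipid, read 93.5, 87.2 and 89.6 against 94.2, 86.8 and 81.3 (-0.05, 95% interval -0.21 to 0.12). Its receptor thus rose while no difference in the ligand was detectable with 3 arrays per group. Sema5a, Sema6a, Sema6b and Sema6d lay between -0.01 and 0.04.

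The 95% intervals describe differences in intensity on these arrays, not in transcript level. Of the 18 ligands that did not pass, 17 had an interval within 0.5 of zero on the log2 scale, as did 6 of 7 plexins and 1 of 2 neuropilins. The exceptions were Sema3f, Plxnd1 and Nrp1, whose intervals reached down to -0.54, -0.65 and -0.51. The lowest intensity on the arrays was 41.4. Such a floor shrinks differences of dim genes, so their intervals do not bound a change in transcript level. Foxn1 and Col1a1, listed as thymic epithelial and mesenchymal markers, averaged 67.6 and 65.7 in wild-type cells, a level near that of several members. In 6 of the 31 members the mean over both groups exceeded the upper quartile of all probe sets. These were Plxnb1, Plxnc1, Sema3f, Sema4a, Sema4f and Sema6c. A further 15 lay between the median and that quartile, and 10 lay below the median. The median and quartile come from all probe sets, while each gene was read by its brightest. Read in that way, 11077 of all 18193 genes lay above the median of probe set means. Plxnc1 and Sema4f exceeded the quartile only through their E2A-deficient arrays, with wild-type means of 88.2 and 72.2. Sema3f, Sema4a and Sema4f were read by probe sets with the suffix _x_at. In wild-type cells their other probe sets averaged 91.9 and 65.7 for Sema3f, 140.2 for Sema4a and 91.3 for Sema4f. The other probe sets of Plxnb1 and Sema6c were also below the quartile there, at 67.7 for Plxnb1 and 110 and 74.3 for Sema6c.

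**Figure D3:**
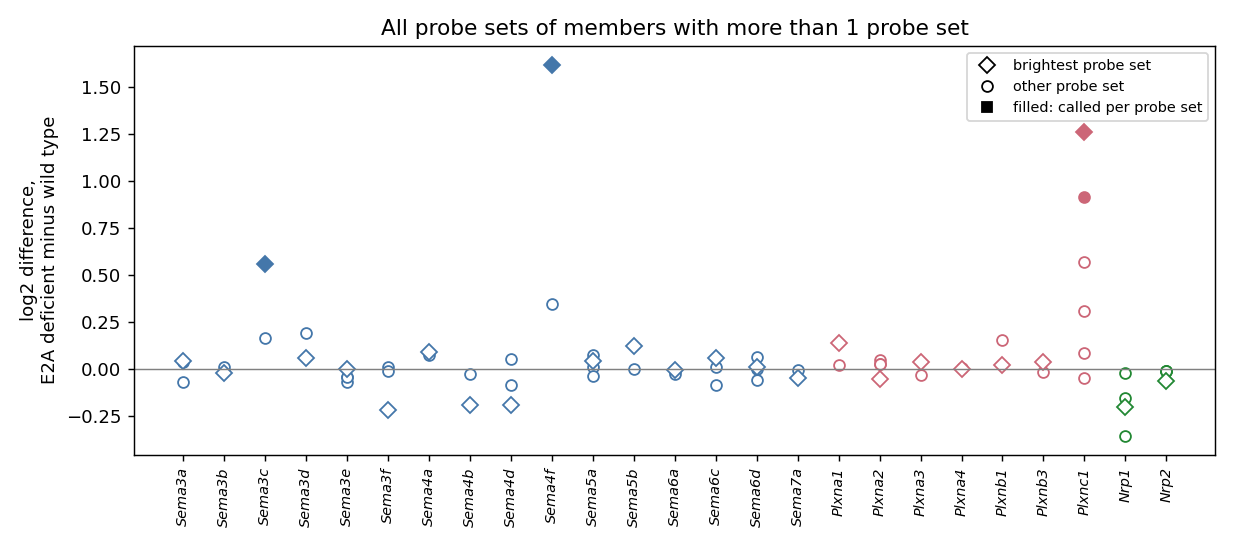
Log2 difference (vertical axis, E2A deficient minus wild type) of every probe set of the 25 members that have more than 1, with diamonds for the brightest probe set, circles for the others, and filled symbols for those that passed over all probe sets. Plxnc1 spreads from -0.05 to 1.26 and Sema4f from 0.35 to 1.62, while most other genes keep within a narrow band around zero.

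The 31 genes had 78 probe sets in all. In the fit per probe set 5 passed, against 1.79% of all 45037 probe sets. They were the brightest ones of Plxnc1, Plxnb2, Sema4f and Sema3c and another of Plxnc1. Of the 67 probe sets of the other 27 members 0 passed in limma, and 5 had an unadjusted p under 0.05. Over all genes 15.7% had such a p-value, and the share over all probe sets was not counted. Among those 5, Plxnb1 had a probe set at 0.16 and Sema3d one at 0.19, which did not pass (limma adjusted p = 0.365 and 0.303).

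Other genes of the pathway were followed through a list of 57, of which 54 were measured. Of these 4 rose, 1 fell and 49 did not pass, a share of 9.26% against 3.46% of all genes. Without Cd93, whose place on the list is unsure, the share was 7.55%. The list was chosen with earlier results of these data known, so its share is not independent of them. Tiam1, an exchange factor that activates Rac, read 214, 184 and 182 in wild-type and 373, 366 and 415 in E2A-deficient cells. It rose by 0.99 (SE 0.0855, limma adjusted p = 0.00154), and the groups were far apart. That call held in all 19 alternatives, with a difference of 0.49 for the mean over its probe sets.

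Mras, a GTPase of the R-Ras kind, read 72.9, 80.8 and 82.6 against 104, 108 and 103 and rose by 0.41 (SE 0.0663, limma adjusted p = 0.0192). Rap1a, one of the GTPases that plexins switch off, read 1106, 1203 and 1213 against 1438, 1441 and 1555 and rose by 0.33 (SE 0.0654, 0.0406). Rasa1, a negative regulator of Ras, read 167, 211 and 202 against 252, 285 and 274 and rose by 0.49 (SE 0.0995, 0.0465). In each of these genes the groups were separate, but the calls were less firm than that of Tiam1. Rap1a and Rasa1 lost their calls whenever a single array was removed (limma adjusted p of 0.0775 to 0.138 and of 0.0585 to 0.149). Mras missed the threshold when wild-type replicate 2 was removed (0.0533) or any 1 of the E2A-deficient arrays (0.0668 to 0.0743). Over 19 alternatives the limma adjusted p ranged from 0.00506 to 0.222 for Mras, which passed in 13, from 0.0315 to 0.379 for Rap1a, which passed in 7, and from 0.0301 to 0.403 for Rasa1, which passed in 6. With the probe set brightest in wild-type cells Rasa1 differed by 0.23 and did not pass. Quantile normalization brought Rap1a to 0.19, and the mean over probe sets brought Rasa1 to 0.25.

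Cd93, a C-type lectin-like receptor of progenitors and endothelium, read 583, 589.6 and 639.6 in wild-type and 355, 285 and 283 in E2A-deficient cells. It fell by 0.98 on the log2 scale (SE 0.0987, limma adjusted p = 0.00271). The mean over its probe sets was -0.47, which passed, and with the beta-actin ratio Cd93 missed the threshold (limma adjusted p = 0.0614; range over 19 alternatives 2.36e-04 to 0.0614). Its place on the list is unsure, since no role in semaphorin signalling is claimed for it here, and without it 4 of 53 passed. Cd93 was listed among 15 receptors and co-receptors, and the other 14 did not pass in limma. These 14 include Cd72, a receptor of Sema4d (0.17), Timd2, a receptor of Sema4a (-0.03), and the integrin chains Itga1 (0.02) and Itgb1 (-0.05), which receive Sema7a. When any 1 array was left out, 2 or 3 of the 54 passed.

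**Figure D4:**
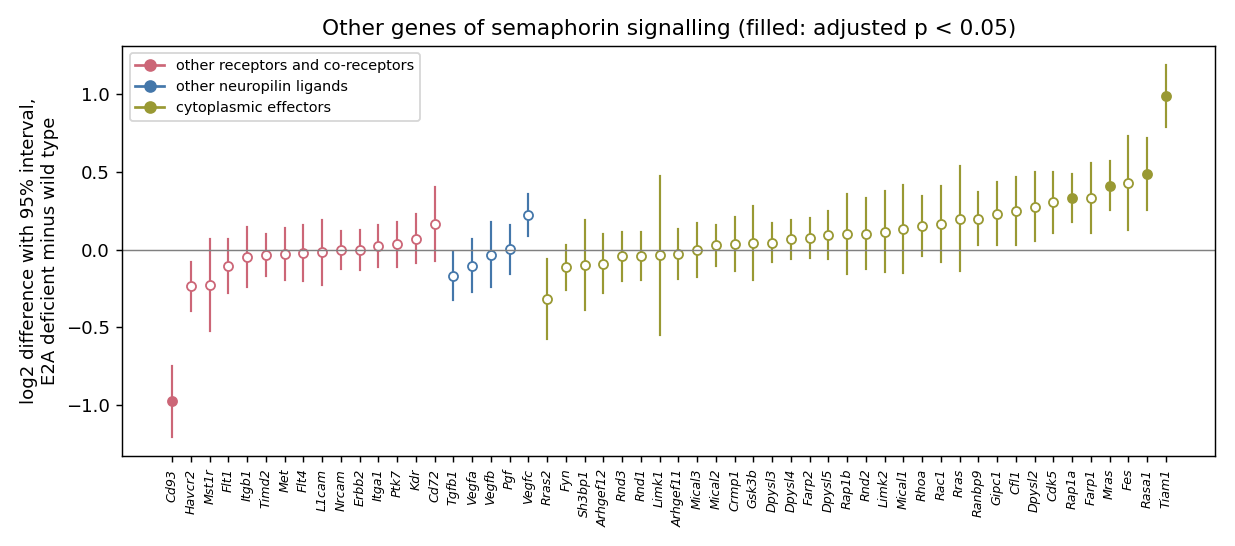
Log2 difference (vertical axis, E2A deficient minus wild type) with its 95% interval for the 54 measured genes of the pathway list. They are ordered by value within 15 receptors and co-receptors (red), 5 neuropilin ligands (blue) and 34 cytoplasmic effectors (olive). Cd93, whose place on the list is unsure, is drawn among the receptors. Filled points passed, with Tiam1 highest at 0.99 and Cd93 lowest at -0.98.

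Tcf3 read 477, 421 and 414 in wild-type and 236, 229 and 281 in E2A-deficient cells, in the direction of the labels. The ratio was 0.57, so part of the signal remained. Of 6 measured markers of the labelled stage, Il2ra, Kit, Cd44, Ptprc and Cd2 did not pass. Thy1 fell by 1.32 on the log2 scale (limma adjusted p = 0.00158). Kit was 0.26 higher at an unadjusted limma p of 0.0417. Cd2 was dim, with means of 65.5 in wild-type and 65.7 in E2A-deficient cells. Array medians were between 77.4 and 79.0. Markers of other cells that use semaphorin signalling stood beside these results as follows. Of 7 endothelial, 6 mesenchymal, 6 dendritic and 3 neural markers measured, none passed in limma and 0 had an unadjusted p under 0.05, and the ranges of their summed intensities overlapped between the groups. Of 5 thymic epithelial markers none passed in limma and 1 had an unadjusted p under 0.05, but their sum was 393 to 431 in wild-type and 440.4 to 485 in E2A-deficient arrays, with Krt8 foremost (0.46). Epcam (0.12) and Krt5 (0.09) were also higher, with overlapping groups. Foxn1 (0.05) and Psmb11 (-0.01) lay at 65.2 to 71.6 on all 6 arrays. The part of thymic epithelial cells in the results was not tested. Of 5 myeloid markers 1 fell, Lyz2, which read 109, 104 and 108 in wild-type and 71.2, 72.3 and 83.3 in E2A-deficient cells (-0.50, limma adjusted p = 0.0151). Their summed intensities were 389.6 to 430.5 in wild-type and 362 to 396 in E2A-deficient arrays, which overlap, and the part of myeloid cells in the results was not tested either. In sorted cells, fewer cells of a kind and less RNA per cell cannot be told apart.

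The 5'/3' ratio of the beta-actin controls moved with the groups. It was 0.104, 0.162 and 0.0981 in wild-type and 0.165, 0.160 and 0.149 in E2A-deficient arrays. Wild-type replicate 2, whose ratio was like those of E2A-deficient arrays, was the lowest wild-type array for Plxnc1 (78.2), the middle one for Sema4f (74.1) and the highest for Sema3c (57.4) and Plxnb2 (105). The groups of these 4 genes did not overlap, so it had to lie below every E2A-deficient array. Its place there says nothing about the ratio, and it is 1 array. Plxnc1 and Sema4f passed with the ratio as a covariate, at which 123 of all genes passed. Plxnb2 and Sema3c, in which wild-type replicate 2 was the highest wild-type array, did not pass with it (limma adjusted p = 0.199 and 0.229). The part of this ratio in the differences was not tested.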

How the data were processed

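The data were 1 intensity per probe set and array for 6 Affymetrix mouse arrays, 3 per group, as deposited by the authors. The submitters' processing notes name RMA, with role, version and settings not given in the sources used here. The deposited intensities were linear, from 41.4 to 18824, with no detection calls. Groups and replicate numbers came from the labels, which do not say that replicates were separate animals, so the p-values cover no more than the spread among these samples.

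The 64 control probe sets were left out, which left 45037, of which 34945 named 1 gene. The probe set with the highest mean log2 value stood for each gene. Values were analysed as log2(intensity + 1) with limma 3.58.1 (R 4.3.3), two-sided, and Benjamini-Hochberg adjustment over all genes, with no further normalization and no filter. A fold is on that scale and understates changes of dim genes. All log2 differences are E2A deficient minus wild type. Every member was to be named, and every gene of the pathway list that passed. The members and lists were chosen with earlier results of these data known. The number of arrays limits the precision. Intervals used limma's moderated standard errors. Same-numbered replicates did not deviate together (r between -0.04 and 0.02), so replicate numbers were not treated as pairs. Alternatives were other pseudocounts, normalizations, filters, variance settings, array weights, other probe set choices, covariates, and each array left out. Figures were drawn with matplotlib 3.10.9.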

Additional observations from a re-analysis of the deposited data

How the results depend on the processing

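Plxnc1 passed in all 19 alternatives, Sema4f and Plxnb2 in 17 each and Sema3c in 13 of 18, and none of them changed direction. Of the 27 other members none passed in any alternative by limma. The ligand count fell from 2 to 1 among only genes above the median, where Sema3c was not tested, without shared probe sets and on adding the beta-actin ratio, and was 1 to 2 when 1 array was left out. Sema4f lay above that median only through its E2A-deficient arrays, with means of 223 there and 72.2 in wild type. That filter thus used the difference that was then tested. The ligand count was 0 by limma with the probe set brightest in wild-type cells, a choice added once the data had been seen. The receptor count fell from 2 to 1 with the beta-actin ratio. With the replicate number as a block, which pairs nothing here, the counts were 2 ligands, 1 receptor and 3 pathway genes, and the receptor lost was Plxnb2 (limma adjusted p = 0.0568). The pathway count of 5 was 7 under a variance trend with robust fitting, of which 5 were higher and 2 lower. It was 3 after quantile normalization and with Xist as a covariate, 1 with the beta-actin ratio, and 2 to 3 when 1 array was left out. The count over all genes, 630, was 753 under that variance trend, 700 with the mean of probe sets, 689 among genes above the median, 123 with the beta-actin ratio and 320 to 533 when 1 array was left out. The cause of these shifts was not tested. The pathway list without Cd93, an alternative chosen after seeing the data, gave 4.

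Some differences that did not pass took the other sign in some alternatives. With the beta-actin ratio Nrp2 was 0.033, Plxna4 -0.016, Sema4a -0.034, Sema4g 0.12 and Sema6d -0.027. With Xist Plxna4 was -0.0058, Sema4g 0.0031 and Sema6d -9.9e-04. After quantile normalization Plxna4 was -0.0035 and Plxnb1 -1.2e-04, and with array weights Plxna4 was -4.5e-04 and Sema4g 0.018. With the mean of probe sets Plxna2 was 0.012 and Sema6c -0.0047, and without shared probe sets Plxnb3 was -0.017 and Sema3f 0.010, against -0.22 by its brightest probe set. When 1 array was left out, the ranges were -0.058 to 0.11 for Plxna3, -0.014 to 0.010 for Plxna4, -0.058 to 0.17 for Plxnb1 and -0.028 to 0.12 for Plxnb3. They were -0.0030 to 0.080 for Sema3a, -0.053 to 0.022 for Sema3b, -0.033 to 0.030 for Sema3e, -0.0048 to 0.066 for Sema3g and -0.024 to 0.17 for Sema4a. They were -0.10 to 0.067 for Sema4g, -0.025 to 0.017 for Sema6a, -0.013 to 0.091 for Sema6b, -0.060 to 0.24 for Sema6c, -0.017 to 0.027 for Sema6d and -0.099 to 0.0053 for Sema7a.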
